A study of Mus musculus with 18 samples.

Results

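The 5 genes described here, *Prlr*, *Galnt17*, *2310079G19Rik*, *C330021F23Rik* and *Gm13736*, are 5 of the 47729 genes in a count table of mouse colon RNA. They were chosen by their levels in these same mice, for values far under Control WT in treated WT colon or far over treated WT in treated Claudin-2TG colon. Their levels and fold changes are therefore a description, with no test. A working name for them, genes lost in WT tumour colon, is too strong even for the 4 that fell. These 4 were lower in AOM-DSS WT than in Control WT but were still counted in each AOM-DSS WT mouse. The data go against the name for *Gm13736*, which had 0 counts in the 3 Control WT mice and 1 count in the 3 AOM-DSS WT mice. It was counted in each of the 3 Claudin-2TG mice. The labels give the tissue as colon and do not say that tumours were dissected.

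RNA was sequenced from the colon of 9 mice, 3 in each of 3 groups. Control WT mice had the WT genotype and the treatment label Control. AOM-DSS WT mice received 1 dose of azoxymethane (AOM, a carcinogen, 10 mg per kg) followed by 3 cycles of 2.5% dextran sulfate sodium (DSS), which injures the colon epithelium. AOM-DSS Claudin-2TG mice received the same agents and carry a *Cldn2* transgene under the villin promoter, which is active in intestinal epithelium. The study used C57BL/6 mice with littermate controls, and the ages of these mice are not given in the sources used here. The labels repeat the AOM and DSS text under the Control samples, so groups were taken from the genotype and treatment labels. The comparison of AOM-DSS WT with Control WT asks what the treatment does in WT colon, and that of AOM-DSS Claudin-2TG with AOM-DSS WT asks what the transgene changes under treatment. Between AOM-DSS Claudin-2TG and Control WT, genotype and treatment differ together and cannot be told apart. The mice are numbered 1 to 3 (Control WT), 4 to 6 (AOM-DSS WT) and 7 to 9 (AOM-DSS Claudin-2TG), and n is 3 for every group mean. The labels do not say that each library comes from a mouse of its own, and each is called a mouse here because the paper describes the experiment in mice with replicates, so p-values measure the spread between these samples.

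The total count per mouse ran from 14142711 to 22262546. Levels are given as CPM (a gene's share of the total count, in counts per 1e6), scaled over the 9 mice with the TMM method of edgeR. A gene with 0 counts may still have up to 3 counts of true signal, or 0.130 to 0.222 CPM depending on the mouse, a limit that covers counting error only. *Xist*, which is made from the inactive X chromosome of females, stood at 214 CPM in Control WT mouse 1 and at 0.203 CPM or less elsewhere. The 4 genes of the Y chromosome showed the reverse, with no more than 0.199 CPM in mouse 1 and 20.2 CPM or more in each of the remaining 8. Mouse 1 thus has the RNA of a female and the rest that of males, although the paper describes its mice as matched for sex. Whether mouse 1 is a female of this group or a different sample was not tested, and the members are given below with and without it. The 11 epithelial markers were all tested, with a sum of 22238 to 29911 CPM per mouse and *Lgals4*, a lectin of gut epithelium, as the most abundant. By edgeR 0 of them were called in AOM-DSS WT against Control WT and 0 in AOM-DSS Claudin-2TG against AOM-DSS WT (4 and 2 at an unadjusted p under 0.05), and 2 were higher in AOM-DSS Claudin-2TG than in Control WT. Of all genes tested 15%, 9.54% and 10% were called in these comparisons, in that order. *Cldn2* itself was 191, 259 and 245 CPM in Control WT, 119, 137 and 132 CPM in AOM-DSS WT and 208, 218 and 251 CPM in AOM-DSS Claudin-2TG mice. It fell in AOM-DSS WT against Control WT (log2 fold change -0.82, standard error 0.14, adjusted p = 0.0138) and was higher in AOM-DSS Claudin-2TG than in AOM-DSS WT mice (0.78, standard error 0.12, adjusted p = 0.0103), by edgeR's quasi-likelihood test with Benjamini-Hochberg adjustment over all genes tested. The first call was lost without mouse 2 or 3 (adjusted p up to 0.0635) and the second without mouse 8 or 9 (up to 0.0597). Between AOM-DSS Claudin-2TG and Control WT *Cldn2* was not called (-0.03, adjusted p = 0.897), and the ranges of these groups overlapped.

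The prolactin receptor is a cytokine receptor of the cell surface that binds prolactin and signals through the kinase JAK2 to STAT5 transcription factors. The GALNT enzymes of the Golgi attach the first sugar, N-acetylgalactosamine, to serine or threonine of a protein, which starts mucin-type O-glycans, the dense sugar chains of the mucus and the surface of the colon epithelium. A processed pseudogene is a copy of a spliced messenger RNA that was written back into the genome, so it holds the exons of its parent gene without the introns.

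*Prlr* (ENSMUSG00000005268, chr15:10177238-10349180, plus strand), the prolactin receptor, was 2.24, 3.06 and 4.52 CPM in Control WT mice 1, 2 and 3. It was 0.406, 0.398 and 0.201 CPM in AOM-DSS WT mice 4, 5 and 6, from 8, 9 and 3 counts. In AOM-DSS Claudin-2TG mice 7, 8 and 9 it was 3.51, 2.74 and 1.70 CPM. The AOM-DSS WT mice lay under every other mouse, and the range of the Claudin-2TG mice overlapped that of Control WT. The mean was 3.27 ± 1.15 CPM (SD, n = 3) in Control WT, 0.335 ± 0.116 in AOM-DSS WT and 2.65 ± 0.910 in AOM-DSS Claudin-2TG. This is 9.77-fold lower in AOM-DSS WT than in Control WT (log2 fold change -3.21, standard error 0.42) and 7.91-fold higher in AOM-DSS Claudin-2TG than in AOM-DSS WT (log2 fold change 2.90, standard error 0.43). Claudin-2TG differed from Control WT by -0.30 on the log2 scale (standard error 0.33), less than the spread between mice. Since colon was sequenced in bulk, fewer cells with *Prlr* RNA and less of it per cell cannot be told apart, for this and for every gene below.

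*Galnt17* (ENSMUSG00000034040, chr5:130872082-131308497, minus strand), a member of the GALNT family, was 8.16, 7.88 and 5.34 CPM in Control WT mice. The AOM-DSS WT mice had 0.711, 0.796 and 0.201 CPM, from 14, 18 and 3 counts, and the Claudin-2TG mice 3.17, 2.33 and 1.18 CPM. No 2 groups overlapped: each AOM-DSS WT mouse lay under each Claudin-2TG mouse, and each of these lay under each Control WT mouse. With means of 7.13 ± 1.55, 0.569 ± 0.322 and 2.23 ± 0.998 CPM, *Galnt17* was 12.5-fold lower in AOM-DSS WT than in Control WT (log2 fold change -3.56, standard error 0.43). It was 3.91-fold higher in Claudin-2TG than in AOM-DSS WT mice (log2 fold change 1.89, standard error 0.53) and 3.20-fold lower in Claudin-2TG than in Control WT mice (log2 fold change -1.66, standard error 0.32). Of the 4 genes that were low in treated WT colon, it had the widest gap between Claudin-2TG and Control WT.

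*2310079G19Rik* (ENSMUSG00000045331, chr16:88626786-88627666, minus strand) is annotated as a protein-coding gene of 881 bases in a single exon. It was 69.0, 40.6 and 37.8 CPM in Control WT mice, 5.74, 2.74 and 1.61 CPM in AOM-DSS WT mice and 42.8, 66.9 and 69.3 CPM in Claudin-2TG mice. The AOM-DSS WT mice had 113, 62 and 24 counts where no other mouse had fewer than 622, and the ranges of Control WT and Claudin-2TG overlapped through mouse 1 alone, since Control WT mice 2 and 3 lay under every Claudin-2TG mouse. The group means were 49.1 ± 17.2, 3.36 ± 2.14 and 59.7 ± 14.6 CPM. That is 14.6-fold lower in AOM-DSS WT than in Control WT (log2 fold change -3.82, standard error 0.47) and 17.7-fold higher in Claudin-2TG than in AOM-DSS WT (log2 fold change 4.10, standard error 0.44). The difference between Claudin-2TG and Control WT was 0.28 on the log2 scale (standard error 0.29), and 0.62 (standard error 0.20) without mouse 1.

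*C330021F23Rik* (ENSMUSG00000065952, chr8:3567990-3584939, plus strand), which RefSeq names *Rps23rg1*, is a protein-coding gene that arose from a copy of the ribosomal protein gene *Rps23*. It was 2.09, 1.66 and 2.95 CPM in Control WT mice, from 42, 33 and 68 counts. The AOM-DSS WT mice had 0.254, 0.177 and 0.0670 CPM, from 5, 4 and 1 counts, and the Claudin-2TG mice 1.58, 1.32 and 0.517 CPM, from 23, 26 and 7 counts. No 2 groups overlapped, and the highest Claudin-2TG mouse lay just under the lowest Control WT mouse. The log2 fold change was -3.63 (standard error 0.47) in AOM-DSS WT against Control WT, a 13.5-fold lower mean, and -0.95 (standard error 0.39) in Claudin-2TG against Control WT. Between Claudin-2TG and AOM-DSS WT the gene was too thinly counted to enter the fit. There the means differed 6.87-fold, and a fit that kept genes with low counts gave 2.69 on the log2 scale (standard error 0.62).

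*Gm13736* (ENSMUSG00000082908, chr2:87526145-87526397, plus strand) is annotated as a processed pseudogene of 253 bases. Control WT mice had 0, 0 and 0 counts, AOM-DSS WT mice 0, 1 and 0 counts, and Claudin-2TG mice 47, 59 and 36 counts, or 3.24, 2.99 and 2.66 CPM. All 3 Claudin-2TG mice were high, with a mean of 2.96 ± 0.290 CPM, the smallest spread relative to its mean of any member in any group where it was above the counting limit. The counts came from both lanes of each of these libraries, 32 and 15 in mouse 7, 26 and 33 in mouse 8, and 27 and 9 in mouse 9. Summed over the group, the ratio of Claudin-2TG to AOM-DSS WT was 170, with a 95% counting interval from 30 to 6764. Against Control WT, with all libraries at 0, it was at least 62.4-fold higher, taking 3 counts over the group as the limit. *Gm13736* was the 1 gene in the table with at least 10 counts in each Claudin-2TG mouse and at most 3 in the other 6 mice together. The same criterion was met by 12 genes for AOM-DSS WT and 0 for Control WT, a count of genes with no test.

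**Figure D1:**
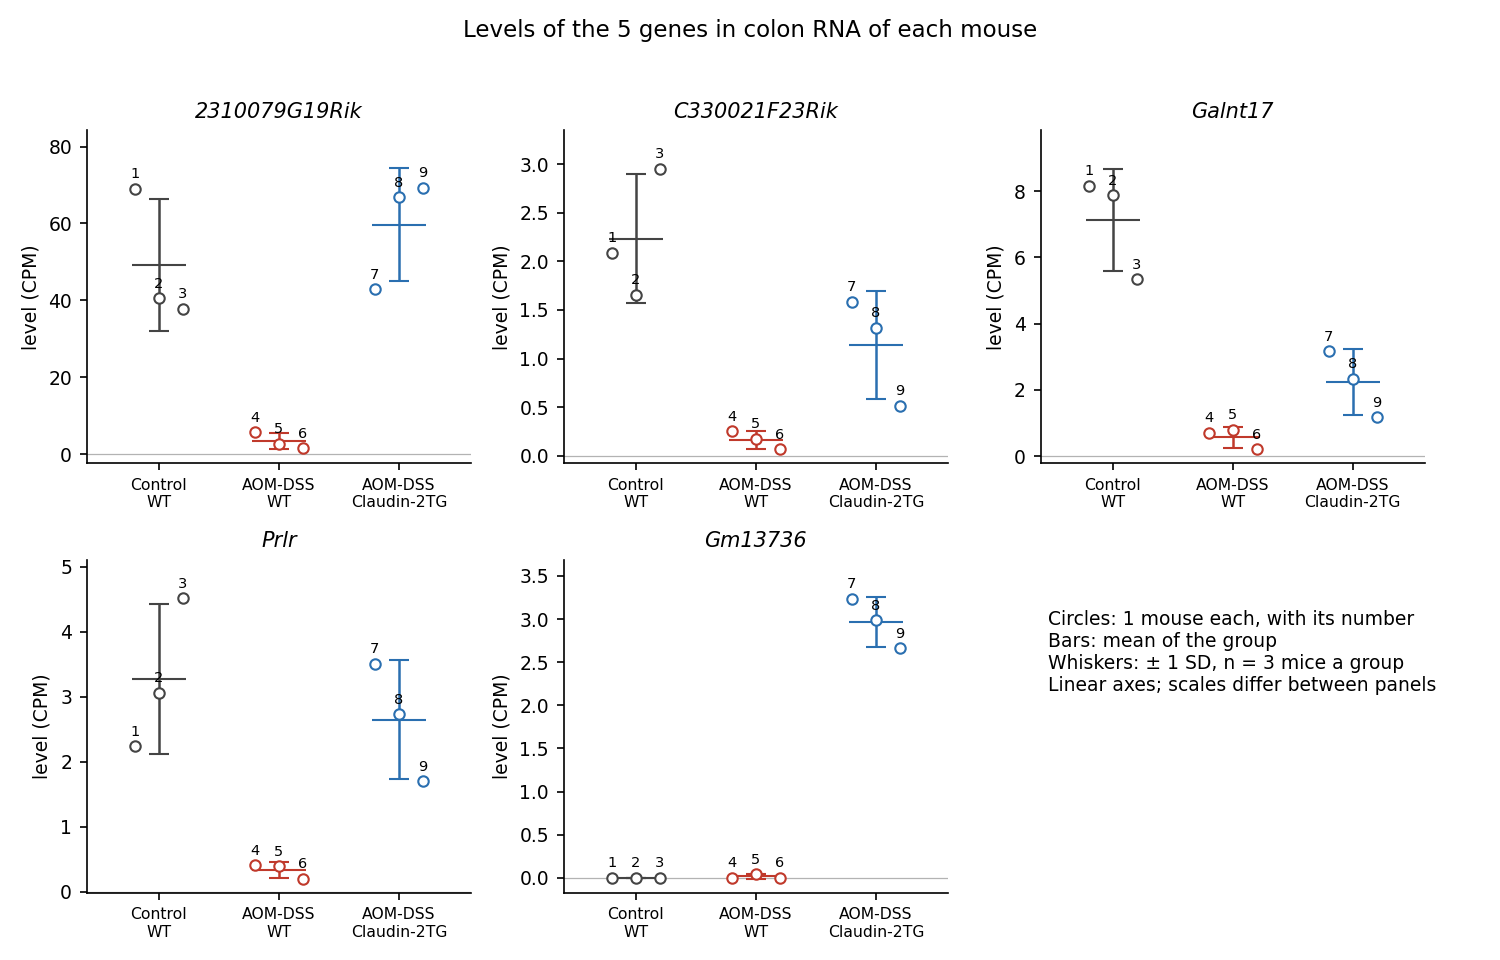
Levels of the 5 genes in CPM (linear axes, a scale for each panel) in each of the 9 mice, marked by number; bars are group means and whiskers 1 SD (n = 3). In 4 genes the AOM-DSS WT mice lie under all other mice, and *Gm13736* is at 0 to 1 counts in the 6 WT mice and at 2.66 to 3.24 CPM in the Claudin-2TG mice.

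The mice of the groups did not overlap for 4 of the 5 genes in AOM-DSS WT against Control WT, all 4 lower, where 15% of all genes tested were called (8.04% higher and 6.92% lower). They did not overlap for 5 of the 5 in AOM-DSS Claudin-2TG against AOM-DSS WT, all higher, where 9.54% of genes were called (2.19% higher and 7.35% lower). Since these contrasts chose the genes, nothing is read from those counts, and a call at the adjusted p is a different and stricter measure than groups without overlap. The share of all genes without overlap is not given here, so in none of the comparisons does the count of members without overlap have a matching background. In AOM-DSS Claudin-2TG against Control WT 1 gene was higher and 2 were lower without overlap, with 10% of genes called (3.92% higher and 6.07% lower), and *Prlr* and *2310079G19Rik* overlapped. Without mouse 1 *2310079G19Rik* no longer overlapped, which makes 2 higher, 2 lower and 1 with overlap. The comparisons share their mice, so the 3 sets of values are not independent of each other. A filter on low counts passed 4 of the 5 genes in the first comparison (not *Gm13736*), 4 in the second (not *C330021F23Rik*) and 5 in the third.

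Without Control WT mouse 1 the log2 fold changes in AOM-DSS WT against Control WT were -3.42 for *Prlr*, -3.46 for *Galnt17*, -3.50 for *2310079G19Rik* and -3.68 for *C330021F23Rik*. In AOM-DSS Claudin-2TG against Control WT they were -0.50, -1.54, 0.62 and -0.99 in the same order, and *Gm13736* had 0 counts in the other 2 Control WT mice as well. Mouse 1 had the highest level of *2310079G19Rik* and *Galnt17* in its group and the lowest of *Prlr*. Among AOM-DSS WT mice, mouse 6 was the lowest in each of the 4 genes. Among Claudin-2TG mice, mouse 9 was the lowest in *Prlr*, *Galnt17* and *C330021F23Rik* and the highest in *2310079G19Rik*, so the 4 genes did not rank the Claudin-2TG mice alike.

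Across the 9 mice the Pearson r of log2 CPM between pairs of these 4 genes ran from 0.80 (*2310079G19Rik* with *Galnt17*) to 0.96 (*C330021F23Rik* with *Prlr*), and the choice of genes with the same group pattern fixes much of it. *Gm13736* had an r of 0.01 with *Galnt17*, 0.17 with *C330021F23Rik*, 0.38 with *Prlr* and 0.51 with *2310079G19Rik*. Outside the 5, the genes most like *Prlr* over the 9 mice were *Greb1l*, *Ndufa9* and *1810046K07Rik*, each at r = 0.98. For *Galnt17* they were *Tbccd1* (0.99), *Mtus1* (0.98) and *Ttc38* (0.98), and for *C330021F23Rik* they were *Ivd* (0.98), *Slc8a1* (0.97) and *Xkr5* (0.97). The 3 genes nearest to *2310079G19Rik*, at 0.99 each, were *Maoa*, the monoamine oxidase A, *Hadh*, an enzyme of mitochondrial fatty acid oxidation, and the pseudogene *Gstm2-ps1*. *Maoa* spanned a far smaller range, with 875, 724 and 791 CPM in Control WT, 545, 429 and 379 CPM in AOM-DSS WT and 812, 906 and 961 CPM in Claudin-2TG mice. For *Gm13736* the nearest were *Gdi2* (0.96), *Zfp672* (0.96) and the potassium channel gene *Kcnq1* (0.93). These r come from 13896 genes at most, share the group pattern and the libraries of the members, and carry no p.

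Per kilobase of exon, the level in Control WT was highest for *2310079G19Rik* (55.8 ± 19.6 CPM per kb, rank 1126 of 24403 genes above 0). Next were *C330021F23Rik* (0.805 ± 0.238) and *Galnt17* (0.758 ± 0.165), which did not differ beyond their spread, then *Prlr* (0.213 ± 0.0752, rank 15914), and *Gm13736* at 0. In AOM-DSS WT *2310079G19Rik* was still the highest of the 5 at 3.82 ± 2.42 CPM per kb, while *Galnt17* (0.0605 ± 0.0342), *C330021F23Rik* (0.0598 ± 0.0339), *Gm13736* (0.0583 ± 0.101) and *Prlr* (0.0218 ± 0.00758) had overlapping spreads. In Claudin-2TG mice the order was *2310079G19Rik* (67.7 ± 16.6), *Gm13736* (11.7 ± 1.15), *C330021F23Rik* (0.411 ± 0.2), *Galnt17* (0.237 ± 0.106) and *Prlr* (0.173 ± 0.0593), of which the last 3 had overlapping spreads. In each of the 3 groups *2310079G19Rik* had the highest mean of the 5.

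The sequence of *Gm13736* shows its parent gene. All 253 bases are identical to bases 156 to 408 of the transcript Srp9-201 of *Srp9* (chr1:182124737-182132407), a protein of the signal recognition particle, and nearly span its coding sequence (bases 155 to 412). The copy runs without a break through all 3 *Srp9* exons. It is printed because any read that lies wholly within it matches both loci. Bases from exon 2 of *Srp9* (positions 72 to 140 of the copy) are in capitals, in the GENCODE M21 transcript on GRCm38:
Gm13736: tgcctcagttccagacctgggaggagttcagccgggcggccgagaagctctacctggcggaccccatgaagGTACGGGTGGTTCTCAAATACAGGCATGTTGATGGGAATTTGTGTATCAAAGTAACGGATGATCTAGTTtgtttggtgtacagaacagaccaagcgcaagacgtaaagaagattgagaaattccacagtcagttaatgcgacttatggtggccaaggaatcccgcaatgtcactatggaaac
How reads that match both loci were assigned is not given in the sources used here.

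*Srp9*, named here for this match and outside the rule for named genes, was 54.2, 46.9 and 43.8 CPM in Control WT, 56.7, 54.0 and 73.7 CPM in AOM-DSS WT and 29.2, 30.2 and 28.8 CPM in Claudin-2TG mice. The 3 Claudin-2TG mice were the lowest of the 9, and *Srp9* and *Gm13736* thus moved in opposite directions. *Srp9* fell in Claudin-2TG against AOM-DSS WT (log2 fold change -1.08, standard error 0.15, adjusted p = 0.0079) and against Control WT (-0.71, standard error 0.11, adjusted p = 0.00519). The first call was lost without mouse 8 or 9 (adjusted p up to 0.0520), and the second was made in each of 6 fits that left out 1 mouse. Between AOM-DSS WT and Control WT the difference was 0.37 (standard error 0.15, adjusted p = 0.138). For every 100 *Srp9* counts there were 11.1, 9.90 and 9.23 *Gm13736* counts in Claudin-2TG mice 7, 8 and 9, and at most 0.0819 in any WT mouse. Reads were available only as counts per gene, so whether the Claudin-2TG reads come from chromosome 2, from chromosome 1 or from elsewhere was not tested.

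**Figure D2:**
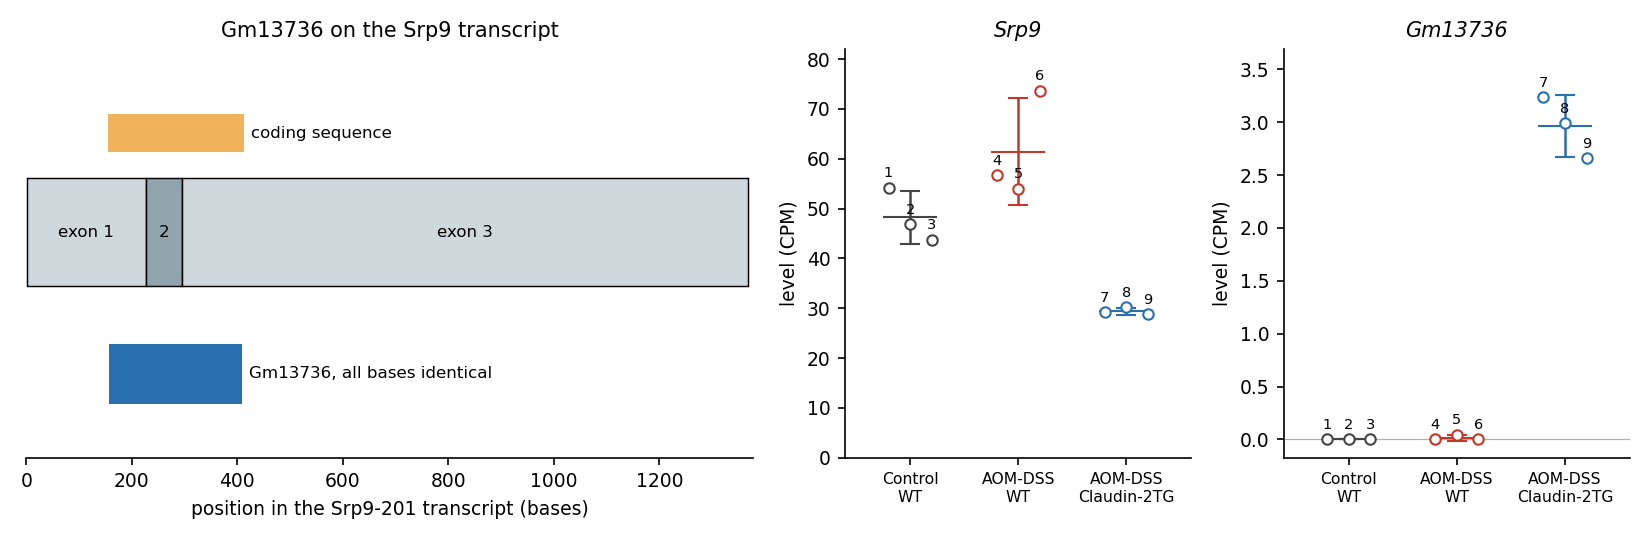
Left, the 253 bases of *Gm13736* on the 3 exons and the coding sequence of the Srp9-201 transcript (position in bases, to scale). Right, *Srp9* and *Gm13736* in CPM in each mouse with group mean and 1 SD (n = 3); the Claudin-2TG mice hold the 3 lowest *Srp9* values, 28.8 to 30.2 CPM, and the 3 highest of *Gm13736*.

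*C330021F23Rik* also shares sequence with other genes. Its transcripts match 13 other genes over at least 100 bases at 95% identity or more, among them *Rps23* itself on the opposite strand (418 bases, 99.5% identical) and *Gm5148* on the same strand (422 bases, 99.3%). The pseudogene *Rps23-ps2* lies inside *C330021F23Rik* with a 398-base match of 100% on the opposite strand and had 0 counts in all 9 mice. *Rps23* was 213, 197 and 190 CPM in Control WT, 301, 225 and 283 CPM in AOM-DSS WT and 277, 301 and 284 CPM in Claudin-2TG mice, so it did not follow the pattern of *C330021F23Rik*. *Prlr* matched 1 other gene, the overlapping *Gm21973* (207 bases, 99.5%), which had 0 counts, and *2310079G19Rik* and *Galnt17* matched none at these limits.

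Promoters in the RefSeq table (GRCm38.p6) were found for 4 of the 5 genes, 6 promoters in all, and not for *Gm13736*. The 250 bases before the start are printed for 3 genes that were low together in treated WT colon, to show where motif matches lie, none of them common to all 3: *2310079G19Rik* at chr16:88627667-88627916 (minus strand), *C330021F23Rik* at chr8:3567748-3567997 (plus strand) and the first of 3 *Prlr* promoters at chr15:10176988-10177237 (plus strand). The window of *C330021F23Rik* ends before the RefSeq start, which lies inside the gene span given above, so its last 8 bases belong to that span. Each is written 5′ to 3′ on the strand of its gene, and capitals mark matches to the motifs searched:
2310079G19Rik: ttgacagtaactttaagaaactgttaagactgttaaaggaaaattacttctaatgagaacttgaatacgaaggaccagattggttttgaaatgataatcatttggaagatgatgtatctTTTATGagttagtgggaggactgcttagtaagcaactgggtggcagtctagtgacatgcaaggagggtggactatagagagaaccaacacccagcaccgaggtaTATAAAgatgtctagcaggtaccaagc
C330021F23Rik: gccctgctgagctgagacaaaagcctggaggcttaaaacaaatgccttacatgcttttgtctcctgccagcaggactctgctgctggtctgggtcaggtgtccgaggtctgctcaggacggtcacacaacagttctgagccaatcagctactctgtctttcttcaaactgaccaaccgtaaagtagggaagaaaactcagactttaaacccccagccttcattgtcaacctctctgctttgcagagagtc
Prlr: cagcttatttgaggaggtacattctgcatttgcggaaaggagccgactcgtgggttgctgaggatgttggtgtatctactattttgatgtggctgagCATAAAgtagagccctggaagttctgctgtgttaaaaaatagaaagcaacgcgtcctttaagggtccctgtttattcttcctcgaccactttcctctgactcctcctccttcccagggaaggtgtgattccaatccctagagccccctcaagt
Searched on both strands were the TATA box TATAAA, the CDX site TTTATG, the site AGATAA of GATA factors, the STAT site TTCNNNGAA, the HNF4 site CAAAGTCCA, the AP-1 site TGANTCA and the E-box CACGTG. *2310079G19Rik* holds TATAAA 27 to 22 bases before the start and TTTATG 131 to 126 bases before it, *Prlr* holds CATAAA, the reverse complement of TTTATG, 153 to 148 bases before its start, and *C330021F23Rik* holds none of the motifs. Of 32851 promoters of this length, 12.4% hold TATAAA, 10.8% TTTATG, 9.99% AGATAA, 7.02% TTCNNNGAA, 0.384% CAAAGTCCA, 6.75% TGANTCA and 6.02% CACGTG. Of the other promoters, the second of *Prlr* holds TTCTAGGAA, a match to TTCNNNGAA 110 to 102 bases before the start, the third holds CATAAA and TGAGTCA, and that of *Galnt17* holds none. The *Galnt17* window lies inside the annotated gene, and all 250 of its bases are annotated as UTR. No motif was shared by all 4 genes. The GC content was 39.6% for *2310079G19Rik*, 48%, 44.8% and 32.8% for the 3 of *Prlr*, 50.4% for *C330021F23Rik* and 64.8% for *Galnt17*, against a median of 52.4% over all promoters. A match is a description of letters in the window only.

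The genes lie on 5 different chromosomes. Of the 10 nearest genes tested on either side, 1 rose and 2 fell in AOM-DSS WT against Control WT, 1 of 9 was higher and 2 were lower in Claudin-2TG against AOM-DSS WT, and 2 of 9 were lower in Claudin-2TG against Control WT. Of all genes tested 15%, 9.54% and 10% were called in these comparisons, in that order. *Cldn8*, which encodes the tight junction protein claudin-8 and lies 63603 bases from *2310079G19Rik*, was 363, 378 and 288 CPM in Control WT, 96.7, 87.5 and 78.7 CPM in AOM-DSS WT and 161, 190 and 249 CPM in Claudin-2TG mice. The groups did not overlap, in the same order as for *Galnt17*. *Cldn8* fell in AOM-DSS WT against Control WT (log2 fold change -1.94, standard error 0.15, adjusted p = 0.00159) and did so in each of 6 fits without 1 mouse. It was higher in Claudin-2TG than in AOM-DSS WT (1.17, standard error 0.17, adjusted p = 0.00879), a call lost without mouse 8 (0.0520), and lower in Claudin-2TG than in Control WT (-0.77, standard error 0.16, adjusted p = 0.0201), a call lost without mouse 1, 2 or 8 (up to 0.0787). On the other side of *2310079G19Rik*, *Krtap13* was at 0.251 to 1.29 CPM, was not called in the 2 comparisons with Control WT and was not tested in Claudin-2TG against AOM-DSS WT.

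*Il7r*, a receptor of lymphocytes 647062 bases from *Prlr*, moved the opposite way to *Prlr*. It rose in AOM-DSS WT against Control WT (2.09, standard error 0.51, adjusted p = 0.0334, lost without mouse 1, 2, 3, 5 or 6, up to 0.109) and was lower in Claudin-2TG than in AOM-DSS WT (-2.59, standard error 0.48, adjusted p = 0.0150, lost without mouse 7, 8 or 9, up to 0.0830). *Tyw1*, next to *Galnt17*, fell in AOM-DSS WT against Control WT (-0.49, standard error 0.12, adjusted p = 0.0358, lost without mouse 1, 2, 3, 5 or 6, up to 0.137). *Aplnr*, which lies 2386222 bases from *Gm13736* with 139 untested genes between them, was lower in Claudin-2TG than in AOM-DSS WT (-3.23, standard error 0.61, adjusted p = 0.0165, lost without mouse 5, 7, 8 or 9, up to 0.0900) and than in Control WT (-2.10, standard error 0.52, adjusted p = 0.0290, lost without mouse 1, 3, 7 or 8, up to 0.100). *Pnpla6* and *Camsap3* beside *C330021F23Rik*, *Auts2* on the far side of *Galnt17*, *Dnajc21* on that of *Prlr*, and *Ptprj*, which lies 2903357 bases from *Gm13736* with 148 untested genes between them, were not called in any of the 3 comparisons.

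Around *Prlr*, the ligand gene *Prl* had 0 counts in all 9 mice. Of 37 genes of prolactin receptor signalling, *Prlr* left out, 33 were tested. In AOM-DSS WT against Control WT 8 rose and 1 fell, with a median log2 fold change of 0.05 against 0.02 over all genes tested. Of all genes tested in that comparison, 8.04% rose and 6.92% fell. Among those that rose were *Socs3*, a feedback inhibitor of cytokine receptors, at 7.61, 5.02 and 6.60 CPM in Control WT and 15.2, 108 and 54.0 CPM in AOM-DSS WT mice (log2 fold change 3.23, standard error 0.68, adjusted p = 0.0281), and *Esr1*, the estrogen receptor (2.0, standard error 0.51, adjusted p = 0.0407). *Irs2*, an adaptor of insulin and IGF receptors, fell from 32.5, 37.2 and 42.1 CPM to 15, 18.4 and 12.1 CPM (-1.27, standard error 0.17, adjusted p = 0.00806). *Socs3* was not called without mouse 1, 2, 3 or 6 (adjusted p up to 0.104), *Esr1* not without mouse 1, 2, 3, 5 or 6 (up to 0.145), and *Irs2* not without mouse 2 (0.0507). The count of 9 genes was 1 without mouse 1, 0 without mouse 2, 2 without mouse 3, 16 without mouse 4, 2 without mouse 5 and 1 without mouse 6. Several of the genes that rose, such as *Socs1*, *Vav1* and *Ptpn6* (named after their values were seen), also act under receptors other than that of prolactin.

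In AOM-DSS Claudin-2TG against AOM-DSS WT 1 of the 33 genes was higher and 5 were lower, with a median of -0.06 against 0.01 over all genes. Of all genes tested in that comparison, 2.19% were higher and 7.35% lower. The higher one was *Irs2* (log2 fold change 0.94, standard error 0.19, adjusted p = 0.0202). Among the lower ones were *Igf1*, the insulin-like growth factor (-2.28, standard error 0.43, adjusted p = 0.0157), *Vav2* (-1.89, standard error 0.36, adjusted p = 0.0159), and *Esr1* (-1.66, standard error 0.42, adjusted p = 0.0451), the last of which was named after its values were seen. *Irs2* and *Vav2* were not called without mouse 7, 8 or 9 (adjusted p up to 0.0964 and 0.0882), *Igf1* not without mouse 5, 7, 8 or 9 (up to 0.0882), and *Esr1* not without mouse 5, 6, 7, 8 or 9 (up to 0.164). The count of 6 was 14 without mouse 4, 2 without mouse 5, 3 without mouse 6 and 0 without mouse 7, 8 or 9. In Claudin-2TG against Control WT 1 gene, *Socs3*, was higher (0.90, standard error 0.22, adjusted p = 0.0300, lost without mouse 2, 3, 8 or 9, up to 0.0956) and 0 were lower by edgeR, with a median of -0.02 against 0.00 over all genes, 6 genes at an unadjusted p under 0.05 and 0 lower by DESeq2. Of all genes tested in Claudin-2TG against Control WT, 3.92% were higher and 6.07% lower. The kinase *Jak2* and the effectors *Stat5a* and *Stat5b*, named for their role after their values were seen, were called in 0 of 9 tests by edgeR (0 at an unadjusted p under 0.05, 0 by DESeq2). *Jak2* was 82.6 to 118 CPM in AOM-DSS WT mice against 88.7 to 106 CPM in Control WT, which is 0.05 on the log2 scale (standard error 0.15). The list's most abundant gene per kilobase, *Ppia*, the cyclophilin A gene, was 414 to 575 CPM over the 9 mice and was not called.

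Around *Galnt17*, 26 of 34 other genes of mucin-type O-glycosylation were tested. In AOM-DSS WT against Control WT 0 rose and 3 fell by edgeR, while 10 had an unadjusted p under 0.05 and DESeq2 called 1 higher and 6 lower, with a median log2 fold change of -0.15 against 0.02 over all genes. Of all genes tested in that comparison, 8.04% rose and 6.92% fell by edgeR. *Galntl6* was 6.67, 4.27 and 5.91 CPM in Control WT and 3.15, 1.42 and 1.54 CPM in AOM-DSS WT mice (-1.43, standard error 0.37, adjusted p = 0.0380), and *Galnt7* was 194, 233 and 238 CPM and 131, 140 and 107 CPM (-0.79, standard error 0.14, adjusted p = 0.0145). The third was *Galnt10* (-0.67, standard error 0.15, adjusted p = 0.0247), named after its values were seen. *Galntl6* was not called without mouse 1, 2, 3, 5 or 6 (adjusted p up to 0.117) *Galnt7* not without mouse 2 or 3 (up to 0.0696), and *Galnt10* not without mouse 1, 2, 3 or 6 (up to 0.0890). The count of 3 was 1 without mouse 1, 0 without mouse 2, 0 without mouse 3, 9 without mouse 4, 2 without mouse 5 and 1 without mouse 6.

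In AOM-DSS Claudin-2TG against AOM-DSS WT 1 of the 26 was higher and 1 lower, where 2.19% of all genes tested were higher and 7.35% lower. The median was 0.02 against 0.01 over all genes. With library size in place of TMM the list had -0.08 and all genes -0.09, and with upper-quartile scaling both had -0.02. These scalings move all genes alike. *B3gnt7*, an enzyme that extends sugar chains and the list's most abundant gene per kilobase, was 907, 725 and 478 CPM in AOM-DSS WT and 1224, 1329 and 1643 CPM in Claudin-2TG mice (0.97, standard error 0.23, adjusted p = 0.0358). *St3gal1*, a sialyltransferase, was 2.03, 6.19 and 4.82 CPM and 1.17, 1.06 and 1.26 CPM (-1.92, standard error 0.43, adjusted p = 0.0270). Both calls were lost without mouse 5, 6, 7, 8 or 9 (adjusted p up to 0.140 and 0.118), and the count of 2 was 8 without mouse 4 and 0 without any other mouse. In Claudin-2TG against Control WT 0 of the 26 were called by edgeR, 6 had an unadjusted p under 0.05 and DESeq2 called 2, with a median of -0.11 against 0.00 over all genes. That count was 2 without mouse 1, 1 without mouse 2 and 2 without mouse 7. Of all genes tested in that comparison, 10% were called by edgeR. Whether *Galnt17* differed from the rest of its family was not tested.

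**Figure D3:**
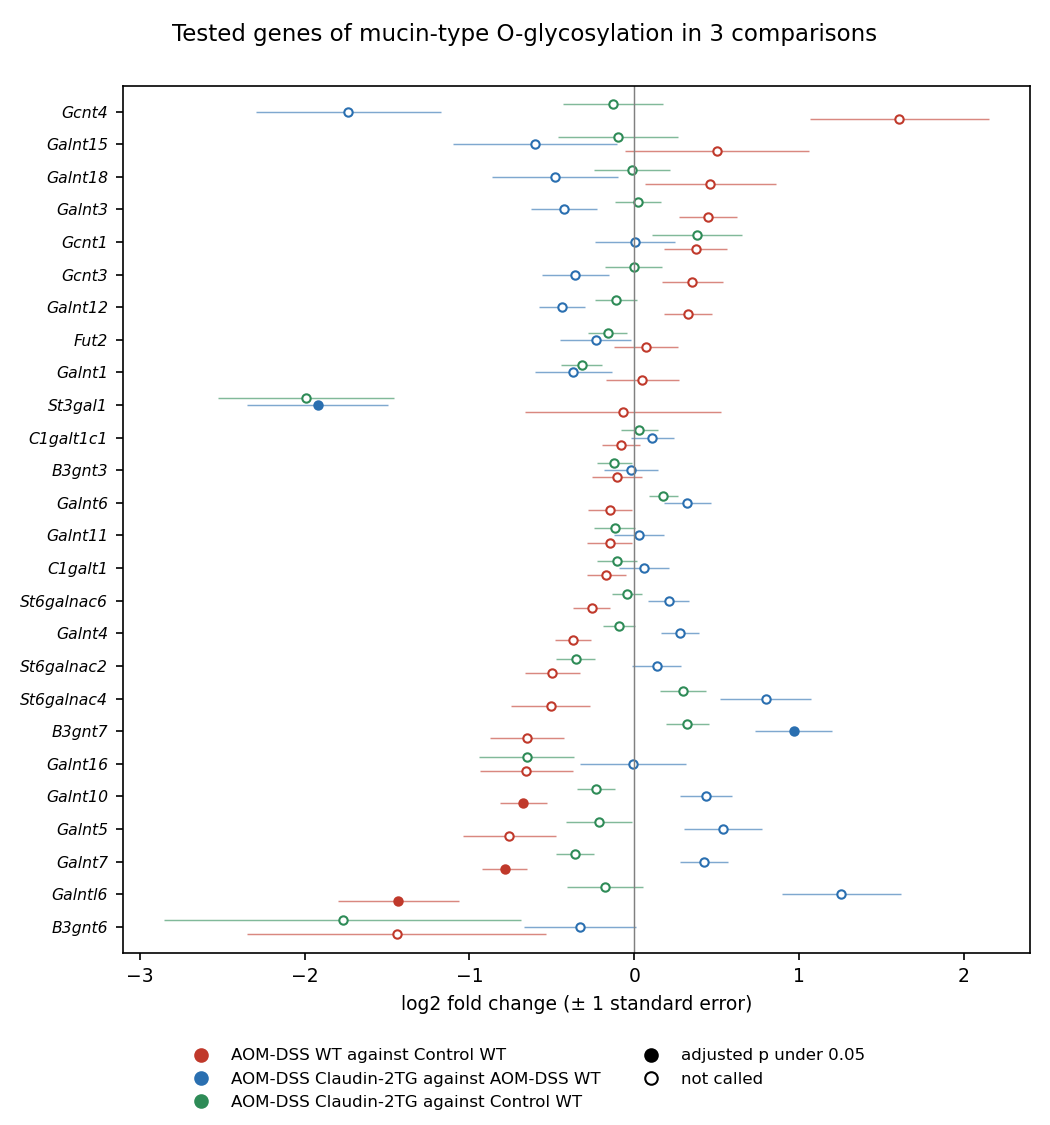
Log2 fold changes with 1 standard error of the 26 tested genes of mucin-type O-glycosylation in the 3 comparisons, filled where the adjusted p is under 0.05. In AOM-DSS WT against Control WT 3 genes are filled, all lower, and *B3gnt7* and *St3gal1* are filled in AOM-DSS Claudin-2TG against AOM-DSS WT.

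Genes of cell type marker lists were called between the same groups, and their part in the levels of the 5 genes was not tested. Over all genes tested, 8.04% rose and 6.92% fell in AOM-DSS WT against Control WT. In Claudin-2TG against AOM-DSS WT 2.19% were higher and 7.35% lower, and in Claudin-2TG against Control WT 3.92% and 6.07%. The counts of each marker list below stand beside these shares. A list with few calls is not read as a change in its cell type. Of 28 genes of mature colonocytes, 3 rose and 8 fell in AOM-DSS WT against Control WT (median log2 fold change -0.45), and 5 were higher and 2 lower in Claudin-2TG against AOM-DSS WT (0.48). Of 27 tested in Claudin-2TG against Control WT, 2 were higher and 1 lower (0.17). Their sum was 32988, 31321 and 27425 CPM in Control WT, 34918, 32696 and 24098 CPM in AOM-DSS WT and 31208, 34604 and 42982 CPM in Claudin-2TG mice, led by *Lypd8*, which made up 23639 of the 32696 CPM in mouse 5. Of the 28 genes, 20 had a negative log2 fold change in AOM-DSS WT against Control WT and 23 a positive one in Claudin-2TG against AOM-DSS WT. *Car4*, a carbonic anhydrase of the colon surface, was at 1843, 1616 and 1211 CPM, 716, 462 and 283 CPM and 1763, 1692 and 2080 CPM. It fell by 1.65 on the log2 scale in AOM-DSS WT (standard error 0.33, adjusted p = 0.0223, lost without mouse 1, 2, 3 or 5, up to 0.0857) and was 1.90 higher in Claudin-2TG than in AOM-DSS WT (standard error 0.31, adjusted p = 0.0131, lost without mouse 5, 8 or 9, up to 0.0669). *Slc51a*, a bile acid transporter at 1 to 2 counts in the other mice, rose to 14, 21 and 11 counts in AOM-DSS WT mice (3.55, standard error 0.47, adjusted p = 0.00794, lost without mouse 2, 0.0545) and was lower in Claudin-2TG than in AOM-DSS WT (-3.17, standard error 0.50, adjusted p = 0.00999, lost without mouse 7, 8 or 9, up to 0.0658). *Hsd3b3*, a steroid enzyme, fell in AOM-DSS WT (-1.69, standard error 0.33, adjusted p = 0.0223, lost without mouse 1, 2, 3 or 5, up to 0.0807) and was lower in Claudin-2TG than in Control WT (-0.80, standard error 0.15, adjusted p = 0.0119, called in each of 6 fits without 1 mouse). *Abcb1a*, a drug efflux pump, was higher in Claudin-2TG than in Control WT (0.63, standard error 0.15, adjusted p = 0.0262, lost without mouse 2, 3, 7 or 9, up to 0.0784).

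Markers of immune cells were called as well, beside the shares over all genes given above. Of 7 T cell genes 6 rose in AOM-DSS WT against Control WT and 6 were lower in Claudin-2TG against AOM-DSS WT, with sums of 6.27, 6.18 and 12.3 CPM, 20.8, 36.5 and 28.7 CPM, and 8.27, 7.40 and 12.0 CPM in the 3 groups and *Lck* as the most abundant. Of 7 macrophage genes 4 rose and then 4 were lower, with sums of 178, 150 and 171 CPM, 180, 345 and 375 CPM, and 134, 112 and 97.1 CPM, led by *Cd14*, which was itself not called in those comparisons and was lower in Claudin-2TG than in Control WT (-0.44, standard error 0.11, adjusted p = 0.0274, lost without mouse 2, 3, 8 or 9, up to 0.124). Of 4 neutrophil genes tested 4 rose, and of 3 tested 2 were lower, with *Mpo* at or under the counting limit in all 9 mice and sums led by *Ly6g* of 208, 197 and 137 CPM, 300, 377 and 344 CPM, and 302, 351 and 331 CPM. The sums rest on *Ly6g*, at 301.9 of 302.4 CPM in mouse 7 and 326.8 of 376.9 CPM in mouse 5. The 2 lower genes, named after their values were seen, were *S100a9* (log2 fold change -6.26, standard error 1.37) and *Csf3r* (-5.12, standard error 1.15), so the sums do not show their fall. *Ly6g* rose in AOM-DSS WT against Control WT (0.82, standard error 0.17, adjusted p = 0.0206, lost without mouse 2, 3 or 5, up to 0.0741) and was higher in Claudin-2TG than in Control WT (0.87, standard error 0.15, adjusted p = 0.00881, called in each of 6 fits without 1 mouse), with a difference of 0.04 between Claudin-2TG and AOM-DSS WT (adjusted p = 0.902). Of 7 B and plasma cell genes 2 rose and then 3 were lower (sums 373, 312 and 331 CPM, 464, 783 and 787 CPM, and 351, 297 and 367 CPM, led by *Sdc1*, which was not called in any comparison). These sums lean on *Sdc1*, at 303 of 373 CPM in mouse 1 and 323 of 783 CPM in mouse 5.

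Of 5 Paneth cell genes 4 rose in AOM-DSS WT and 1 was lower in Claudin-2TG against AOM-DSS WT, and 1 of 4 was higher in Claudin-2TG against Control WT, with sums of 24.6, 22.6 and 30.1 CPM, 162, 279 and 1671 CPM, and 44.4, 44.2 and 21.3 CPM, led by *Lyz1*. *Lyz1* was the gene called in Claudin-2TG against Control WT (2.04, standard error 0.26, adjusted p = 0.00227, called in each of 6 fits without 1 mouse). Mouse 6 had the highest Paneth cell sum of the 9 mice and the lowest level of each of the 4 genes that were low in treated WT colon. Mouse 6 also had the highest macrophage, crypt stem cell, tuft cell and squamous sums. Its mature colonocyte, goblet cell and enteroendocrine sums and its total count (14142711) were the lowest of the 9 mice. Of 7 crypt stem cell genes 1 rose in AOM-DSS WT, 0 were called in Claudin-2TG against AOM-DSS WT by edgeR (2 at an unadjusted p under 0.05) and 2 were higher in Claudin-2TG against Control WT, with 235, 271 and 261 CPM, 240, 346 and 536 CPM, and 313, 281 and 321 CPM, led by *Sox9*. Goblet cell genes (8, led by *Clca1*) had 1 fall in AOM-DSS WT and 1 higher in Claudin-2TG, at 14419, 16589 and 16515 CPM, 14136, 11915 and 9925 CPM, and 13454, 12493 and 20579 CPM. Enteroendocrine genes (7, led by *Pyy*) had 1 fall and 2 higher in those comparisons, at 601, 609 and 584 CPM, 648, 490 and 352 CPM, and 572, 757 and 879 CPM.

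In tuft cell genes, 2 of 5 fell in AOM-DSS WT, 0 of 4 were called in Claudin-2TG against AOM-DSS WT by edgeR (1 at an unadjusted p under 0.05) and 1 of 4 was lower in Claudin-2TG against Control WT, with sums of 18.1 to 63.7 CPM led by *Avil*. *Avil* was not called, and at 55.1 CPM it made up most of the highest sum, that of mouse 6, against 5.47 to 9.34 CPM in Control WT mice. Of 2 squamous genes tested 1 rose in AOM-DSS WT and 1 was lower in Claudin-2TG, at 4.88, 6.73 and 5.47 CPM, 17.7, 28.9 and 34.9 CPM, and 8.75, 9.73 and 7.61 CPM led by *Krt14*, with *Krt5*, *Krt1*, *Trp63* and *Sprr1b* at or under the counting limit in all 9 mice. Of 3 genes of interstitial cells of Cajal 1 fell, 1 was higher and 1 was lower in the 3 comparisons (221 to 412 CPM, led by *Ano1*). *Ano1*, which was not called, made up 365 of the 412 CPM in mouse 2. Adipocyte genes were called in 0 tests by edgeR (1, 0 and 0 at an unadjusted p under 0.05), with sums of 5.98 to 133 CPM led by *Cfd* and highest in mice 2 and 8. The 1 pancreatic acinar gene tested was *Cela1*, also called in 0 tests (0, 1 and 1 at an unadjusted p under 0.05), with *Amy2a5* at 0 counts.

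Among markers of the deeper wall, 8 of 8 enteric neuron and glia genes, 4 of 6 endothelial genes, 3 of 7 smooth muscle genes and 1 of 7 fibroblast genes were lower in Claudin-2TG than in Control WT. Of all genes tested 6.07% were lower there, 7.35% in Claudin-2TG against AOM-DSS WT and 6.92% in AOM-DSS WT against Control WT. In Claudin-2TG against AOM-DSS WT 1 of 6 neuron and glia genes, 3 of 6 endothelial genes and 2 of 7 fibroblast genes were lower, and 0 of 7 smooth muscle genes were called by edgeR (0 at an unadjusted p under 0.05). In AOM-DSS WT against Control WT 3 of 8 neuron and glia genes fell, and 0 genes of the endothelial, smooth muscle and fibroblast lists were called by edgeR (0, 2 and 5 at an unadjusted p under 0.05). The neuron and glia sum was 60.2, 38.7 and 57.3 CPM, 30.3, 41.3 and 45.3 CPM, and 19, 13.3 and 13.1 CPM (led by *Ret*), and the endothelial sum 49.2, 57.2 and 55.7 CPM, 48.2, 60.3 and 52.2 CPM, and 27.6, 22.0 and 25.0 CPM (led by *Plvap*). The smooth muscle sum was 4071, 2038 and 3035 CPM, 2953, 1078 and 1302 CPM, and 1294, 1511 and 983 CPM (led by *Tagln*), and the fibroblast sum 396, 295 and 425 CPM, 449, 1125 and 516 CPM, and 240, 184 and 263 CPM (led by *Col3a1*). The Claudin-2TG mice were the lowest 3 of the 9 in the neuron and glia, endothelial and fibroblast sums, and also in the macrophage sum given above. The neuron and glia sum leans on *Ret*, at 10.5, 7.33 and 12.2 CPM, 6.96, 31.1 and 29.1 CPM, and 3.17, 2.99 and 2.59 CPM, whose log2 fold change in AOM-DSS WT against Control WT was 1.19 while all 7 other genes had negative ones. *Ret* was also the 1 gene of this list called in Claudin-2TG against AOM-DSS WT (-2.96, standard error 0.55, adjusted p = 0.0201, lost without mouse 5, 7, 8 or 9, up to 0.0982).

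Genes of position along the colon were tested too, since the place of sampling can differ between mice. Of all genes tested 15% were called in AOM-DSS WT against Control WT, and 10% in Claudin-2TG against Control WT. The share was 9.54% in Claudin-2TG against AOM-DSS WT. Of the proximal *Hox* genes *Hoxb5* fell in AOM-DSS WT against Control WT (1 of 8 tested, log2 fold change -1.97, standard error 0.49, adjusted p = 0.0363, lost without mouse 1, 2, 3, 5 or 6, up to 0.123) and was lower in Claudin-2TG than in Control WT (1 of 7, -1.82, standard error 0.40, adjusted p = 0.0187, lost without mouse 3, 8 or 9, up to 0.0830). Of 9 distal genes tested, *Hoxd10* rose in AOM-DSS WT (0.99, standard error 0.25, adjusted p = 0.0392, lost without mouse 1, 2, 3 or 5, up to 0.137), and 3 were higher in Claudin-2TG against Control WT, led by *Hoxd11* (0.83, standard error 0.16, adjusted p = 0.0122, lost without mouse 3, 0.0543). Between Claudin-2TG and AOM-DSS WT 0 of 6 proximal and 0 of 9 distal genes were called by edgeR, with 0 at an unadjusted p under 0.05. The part of the place of sampling in the levels of the 5 genes was not tested.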

How the data were processed

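RNA from the colon of 9 mice was sequenced on 2 lanes each, and the 18 lane columns of the deposited count table were summed per mouse. The authors aligned reads to GRCm38 and counted them per gene with featureCounts of Subread. The submitters' notes name HISAT2 as aligner, the paper names TopHat2, and no versions are given. The deposited table also holds a Length column, a unit of the kind other (bases of exon per gene), used for levels per kilobase. Mice were grouped by their genotype and treatment labels. Of 47729 gene identifiers, 47310 have a symbol in GENCODE M21.

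Each comparison was fitted on its 6 mice with edgeR 4.0.16 (limma 3.58.1, R 4.3.3), after filterByExpr with a minimum count of 10 and a minimum total of 15, with TMM scaling and the robust quasi-likelihood test. Genes with a Benjamini-Hochberg adjusted p under 0.05 are called. The steps were tested on simulated data. Totals per mouse ran from 14142711 to 22262546. Intervals and the limit of 3 counts cover counting error only, since reads carry no molecular identifiers. Alternatives were DESeq2 1.42.0, library size, upper quartile, no filter, a filter of at least 10 counts per mouse, a joint fit of the 9 mice, each lane alone, and leaving out each mouse. Tables, sequences and figures used Python 3.11.15 with scipy 1.17.1, pandas 2.3.3, matplotlib 3.10.9 and numpy 2.4.6, and transcripts were matched with blastn 2.17.0 (at least 100 bases at 95% identity).

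The 5 genes and all lists were chosen with earlier results of these data known. The lists are prolactin receptor signalling, mucin-type O-glycosylation, mature colonocytes, proximal and distal *Hox* genes, and markers of cell types. The rule for named genes, for each comparison, takes the 2 called genes that moved most, up and down, of the prolactin and O-glycosylation lists, with the most abundant gene per kilobase in Control WT, 1 such gene up and down of the colonocyte and *Hox* lists, the most abundant gene of each marker list, and the nearest tested gene on each side of a member. Similar genes are the 3 with the highest Pearson r of log2 CPM (prior count 2) over 9 mice among genes with a mean of at least 1 CPM. For the 5 genes no test is given, as they were picked from these values.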

Additional observations from a re-analysis of the deposited data

How the results depend on the processing

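Of 151 log2 fold changes of the 4 members other than *Gm13736* under the alternatives, 150 kept their direction and moved by less than the spread between mice. The exception was *Prlr* in AOM-DSS Claudin-2TG against Control WT, at 0.0073 without Control WT mouse 3. Leaving out 1 mouse at a time gave, in AOM-DSS WT against Control WT, -4.44 to -3.50 for *2310079G19Rik*, -4.02 to -3.33 for *C330021F23Rik*, -3.85 to -3.21 for *Galnt17* and -3.42 to -2.92 for *Prlr*. In Claudin-2TG against AOM-DSS WT the ranges were 3.80 to 4.72, 2.38 to 3.06 (4 fits), 1.55 to 2.20 and 2.66 to 3.15, and in Claudin-2TG against Control WT 0.12 to 0.62, -1.23 to -0.63, -1.98 to -1.38 and -0.55 to 0.0073. *Gm13736* gave no value in AOM-DSS WT against Control WT, where it was not tested, and its fitted log2 fold changes in the other comparisons, which rest on 0 or 1 counts in 1 group, were 5.62 with lane 2 alone, 7.25 with DESeq2, 7.92 with lane 1 alone and 6.45 to 8.60 without 1 mouse (the highest without mouse 5) against AOM-DSS WT. Against Control WT they were 7.58, 8.41, 7.92 and 8.71 to 8.93.

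Counts of genes called depended more on the setting: 66 of 126 values were within 1.5 times the reported count. Leaving out 1 mouse gave 135 (without mouse 2) to 4080 (without mouse 4) genes where 2310 were called in AOM-DSS WT against Control WT, 58 (without mouse 8) to 2894 (without mouse 4) against 1421 in Claudin-2TG against AOM-DSS WT, and 525 (without mouse 3) to 1383 (without mouse 7) against 1501 in Claudin-2TG against Control WT. In that order, prolactin receptor genes ranged over 0 to 16, 0 to 14 and 0 to 1, and O-glycosylation genes over 0 to 9, 0 to 8 and 0 to 2. With DESeq2 the O-glycosylation counts were 7, 5 and 2. With all 9 mice in 1 fit there were 2136 genes in Claudin-2TG against AOM-DSS WT and 445 in Claudin-2TG against Control WT, 6 O-glycosylation genes in AOM-DSS WT against Control WT and 0 prolactin receptor genes in Claudin-2TG against Control WT. At least 10 counts in every mouse gave 908 genes in Claudin-2TG against AOM-DSS WT, where lane 1 alone gave 1 O-glycosylation gene and lane 2 alone 3 prolactin receptor genes. In Claudin-2TG against Control WT no filter gave 2567 genes and 6 O-glycosylation genes, and library size 2 prolactin receptor and 3 O-glycosylation genes. The cause was not tested. Library size without TMM moved the median log2 fold change of all genes to -0.09 in Claudin-2TG against AOM-DSS WT and -0.11 in Claudin-2TG against Control WT, with 218 genes higher and 1294 lower against 326 and 1095 in the first and 276 and 1310 against 589 and 912 in the second. At these depths, *C330021F23Rik* with 1 to 5 counts per AOM-DSS WT mouse, *Gm13736* with 1 count in the WT mice, and *Prlr* and *Galnt17* with 3 counts each in mouse 6 are at or near the limit of counting.

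With 3 mice per group, 1 of the 9 with the RNA of a female and colon taken in bulk, these values do not show which cells carry the 5 RNAs. The groups share their mice across comparisons, the genes were picked from the same values, and cages, dates of extraction and the part of the colon taken are not given for these 9 mice in the sources used here. The paper names distal colon for other experiments, in mice with DSS colitis or recovering from it. Counts per gene do not show from which copy a read of *Gm13736* or *C330021F23Rik* came.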
